A study of Mus musculus with 8 samples.

Results

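The genes described here are the neighbours of Card9 on mouse chromosome 2, taken over 5 Mb on either side of it. They were chosen by position and by detection: a probe had to map between bases 21208000 and 31208000 of chromosome 2 on the mm9 build and to lie well above background on at least 3 of the 4 arrays of either genotype. Probes for Card9 itself, for Tsc1, Ptges, Ass1 and Col5a1, and for ribosomal protein, proteasome and NADH dehydrogenase subunits with names starting Rpl, Rps, Psm and Nduf were left out. This left 255 probes for 164 genes, of 18595 genes measured by the same filter on the whole array. A further 100 of the 264 genes that the array carries in this window were too dim in both genotypes to be followed. Of the 164 genes, 135 carried a gene symbol and 29 only a clone, accession or number. The protein-coding genes numbered 133, long non-coding RNA genes 13, and 18 had no gene type in the annotation used. At the edges of the window, the outermost genes inside were an unnamed transcript (chr2:21990925-21990984, difference -0.10) and Ncs1 (chr2:31150871-31150930, -0.29), and the first ones outside were Thnsl1 (chr2:21136476-21136535, -0.78) and Hmcn2 (chr2:31316172-31316231, -0.34). At the edge of detection, 20 probes were above background on exactly 3 arrays of their better genotype, with a median level there of -3.34, and 36 probes just missed with 2 such arrays, at a median of -4.27. Of the 164, 70 lay below Card9, at smaller coordinates, and 94 above it.

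RNA came from peritoneal macrophages of wt mice (4 arrays) and of Card9-/- mice (4 arrays). All mice, controls included, had received thioglycolate into the peritoneum 4 days before cell collection, and both genotypes were given zymosan, a yeast cell-wall particle, at 500 mg/kg for 4 h. The ascites cells were treated with red cell lysis buffer and plated, and the adherent cells were kept. The labels state that cell pellets of 4 or 5 mice per group were collected and do not state whether the 4 replicates of a group were separate animals, so the p-values below measure the spread between these samples, which may be technical. Strain, backcrossing, age and the part of Card9 that was deleted are not given in the sources used here. No group without zymosan was analysed here.

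Card9 is an adaptor protein of myeloid cells that carries signals from C-type lectin receptors, which recognise fungal cell walls, through Bcl10 and Malt1 to NF-kB. Its gene lies in a gene-dense stretch of chromosome 2 that also holds a cluster of lipocalin genes, the Surfeit cluster of closely packed housekeeping genes, Notch1 and several signalling genes of leukocytes. Neighbours of a targeted gene are of interest in a knockout because chromosome around the target comes from the strain in which it was made and stays linked to it through breeding, and because regulatory sequence or a selection cassette at the target can act on genes beside it.

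Each array was read in 1 colour. The level of a gene is log2 of its processed signal minus the array's 75th percentile over non-control spots, so 0 is a bright spot's level and a step of 1 is a doubling. Where a gene had several probes, the one with the highest mean level stands for it. Apart from that choice, levels are set against each other within a probe only. Distances from Card9 are counted from the centre of the window, base 26208000, next to the brighter Card9 probe, to the middle of a gene's probe. A difference is the mean of the 4 Card9-/- arrays minus the mean of the 4 wt arrays on that log2 scale. Between 47.8% and 56.5% of probes were well above background on an array, and no spot was saturated. All 4 wt arrays and Card9-/- replicate 4 were on 1 slide, Card9-/- replicates 1 and 3 on a second slide and Card9-/- replicate 2 on another slide. Over all genes, wt replicates 1 and 2 correlated at 0.985, against 0.921 for wt replicates 3 and 4. Correlations between those 2 pairs were 0.822 to 0.895, and between Card9-/- arrays 0.860 to 0.969. The labels do not say whether wt replicates 1 and 2 share a source.

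The Card9 probes served as the check of the labels. The brighter probe, at chr2:26208066-26208504, read -6.21, -3.66, 1.48 and -0.67 on wt replicates 1 to 4 and -5.93, -5.48, -4.77 and -5.43 on Card9-/- replicates 1 to 4. It exceeded background on 3 wt arrays and on none of the knockout. The library labelled wt replicate 1 was as low as the Card9-/- arrays, and the difference of -3.14 did not pass the exact permutation test (2-sided p = 0.143). The other Card9 probe exceeded background on 2 wt arrays and on none of the knockout. Macrophage marker genes split the wt arrays in the same way. Averaged over 8 such genes, the level was 0.85 for the library labelled wt replicate 1, followed by 1.12, 6.74 and 5.39 for the other wt replicates in order, against 2.17 to 2.88 on the Card9-/- arrays. Adgre1, which encodes the macrophage surface protein F4/80, was well above background on all 8 arrays and read 0.67 and 0.35 in wt replicates 1 and 2, and 1.62 to 2.42 on the Card9-/- arrays. All 11 T cell genes and all 8 measured natural killer cell genes were higher on the Card9-/- arrays, by 1.45 and 2.13 on average, although none passed the adjusted threshold. Their mean levels did not overlap between genotypes: 0.81 to 1.26 on wt arrays against 1.95 to 3.26 for T cells, and -1.03 to -0.08 against 0.41 to 2.96 for natural killer cells. In RNA from mixed cells, fewer cells of a type and less RNA per cell cannot be told apart. Xist was detected on all 4 wt arrays and on no Card9-/- array, and Ddx3y, Eif2s3y and Uty the other way round, so sex and genotype cannot be told apart in these 8 arrays.

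The 250 bases before the transcription start are given for some of the flanking genes with a small unadjusted p. Of these, 3 were higher on every Card9-/- array (Lcn4, C8g and Cstad), and Snhg7 was lower on every one. Ubac1 was higher on both of its 2 probes, but its groups overlapped on the brighter probe. Other genes whose groups did not overlap, such as Abi1, are not shown. The sequences are those of RefSeq on GRCm38.p6, a later build than the one of the array, and run 5′ to 3′ towards the gene. Capitals mark matches to TATAAA, the core of the TATA box, or to CCAAT, the core of the CCAAT box, with both strands searched (a CCAAT on the other strand reads ATTGG here).
Lcn4: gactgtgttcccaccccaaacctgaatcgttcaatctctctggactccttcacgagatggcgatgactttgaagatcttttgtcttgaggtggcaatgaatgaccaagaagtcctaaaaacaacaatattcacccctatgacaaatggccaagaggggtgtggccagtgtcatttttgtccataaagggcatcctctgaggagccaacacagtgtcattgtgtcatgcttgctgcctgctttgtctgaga
C8g: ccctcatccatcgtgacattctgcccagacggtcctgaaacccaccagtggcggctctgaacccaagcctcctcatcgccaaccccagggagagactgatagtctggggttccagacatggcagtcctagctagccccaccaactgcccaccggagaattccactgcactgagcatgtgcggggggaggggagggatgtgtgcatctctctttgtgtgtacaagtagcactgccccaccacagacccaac
Cstad: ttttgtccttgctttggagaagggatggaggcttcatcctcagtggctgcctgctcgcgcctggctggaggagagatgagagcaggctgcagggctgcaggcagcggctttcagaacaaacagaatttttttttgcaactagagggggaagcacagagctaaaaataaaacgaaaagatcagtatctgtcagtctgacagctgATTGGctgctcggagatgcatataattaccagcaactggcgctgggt
Ubac1: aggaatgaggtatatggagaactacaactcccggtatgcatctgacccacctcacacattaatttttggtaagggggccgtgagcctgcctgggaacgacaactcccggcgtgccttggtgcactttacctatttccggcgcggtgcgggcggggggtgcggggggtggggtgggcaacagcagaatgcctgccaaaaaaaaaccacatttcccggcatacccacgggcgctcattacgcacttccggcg
Snhg7: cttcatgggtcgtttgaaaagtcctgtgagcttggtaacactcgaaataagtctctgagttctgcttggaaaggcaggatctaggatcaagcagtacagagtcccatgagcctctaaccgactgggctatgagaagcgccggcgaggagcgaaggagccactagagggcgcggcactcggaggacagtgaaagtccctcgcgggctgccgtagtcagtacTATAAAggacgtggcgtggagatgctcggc

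The Lcn4 stretch was chr2:26671283-26671532 on the minus strand. The C8g stretch was chr2:25501720-25501969 on the minus strand. The Cstad stretch was chr2:30594794-30595043 on the plus strand. The Ubac1 stretch was chr2:26021761-26022010 on the minus strand. The Snhg7 stretch was chr2:26640245-26640494 on the minus strand. For C8g the first of 2 starts listed was used. The Cstad stretch held 1 CCAAT on the other strand, from 47 to 43 bases before the start. The Snhg7 stretch held 1 TATAAA, from 30 to 25 bases before the start, the usual place of a TATA box. The other 3 stretches had neither set of letters in this window. Of the 164 flanking genes, 138 had a promoter entry, and TATAAA was present in 2.90% of these windows against 13.0% of 27025 promoters. CCAAT was present in 26.1% of the flanking windows against 34.5% of all. The flanking promoters had a median GC content of 59.0%, against 52.0% for all promoters and for those of chromosome 2, and 61.6% of them had a CpG ratio (observed over expected) above 0.6, against 34.5% of all. The flanking promoters belong to genes detected on these arrays, whereas the promoters set against them were not filtered by detection. The part of that filter in these contrasts was not tested. These matches describe letters, not binding sites.

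Counts for the genes around Card9 are given beside the shares over all genes. None of the 164 passed limma's test at an adjusted p of 0.05, where 5 of all 18595 genes did (0.0269%), those 5 (Ddx3y, Eif2s3y, Uty, XIST and BX528370) being transcripts of chromosomes X and Y. With so few calls on the array, the lack of any among the 164 says little about the neighbourhood. A p that misses the threshold does not show that levels were equal. At an unadjusted p under 0.05, the flanking genes numbered 10, which is 6.10% of them, with 5 higher and 5 lower on Card9-/- arrays. Over all genes the share was 7.24% (2.65% higher and 4.59% lower), so the share around Card9 was near the background. Arrays of the 2 genotypes did not overlap for 10 flanking genes (6.10%), 3 higher and 7 lower. The background of non-overlap was 5.23% over all genes, made up of 1.54% higher and 3.68% lower. In each of the 2 counts of 10, 2 genes passed the detection filter through Card9-/- arrays alone and 1 through wt arrays alone. With 3 of 4 arrays required in both genotypes, 8 of 143 flanking genes (5.59%) had an unadjusted p under 0.05, beside 6.78% of all genes. Groups then did not overlap for 7 (4.90%, beside 5.02%). A difference of 2-fold or more either way was measured for 19 flanking genes (11.6%), against 15.4% of all genes.

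Several probes were measured for 65 flanking genes, and all probes of a gene differed in the same direction for 39 of them and in both directions for 26. The median difference of the flanking genes was -0.14, against -0.09 over all genes and -0.12 over the other 1261 genes of chromosome 2. The flanking genes lower on Card9-/- arrays numbered 98, or 59.8%, beside 56.3% of all genes. That split depends on scaling: with arrays scaled to their medians, 71.3% of flanking genes and 67.9% of all genes were lower, while the median over all genes moved to -0.26. Array by array, the median level of the 164 genes was 0.26, 0.10, 0.67 and 0.31 on wt replicates 1 to 4 and 0.21, 0.04, 0.37 and 0.17 on Card9-/- replicates 1 to 4. The ranges overlapped, and the highest value, on wt replicate 3, stood out more than any difference between genotypes. That array held the highest level of 51 of the 164 genes, or 31.1%, and of 27.0% of all genes.

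**Figure D1:**
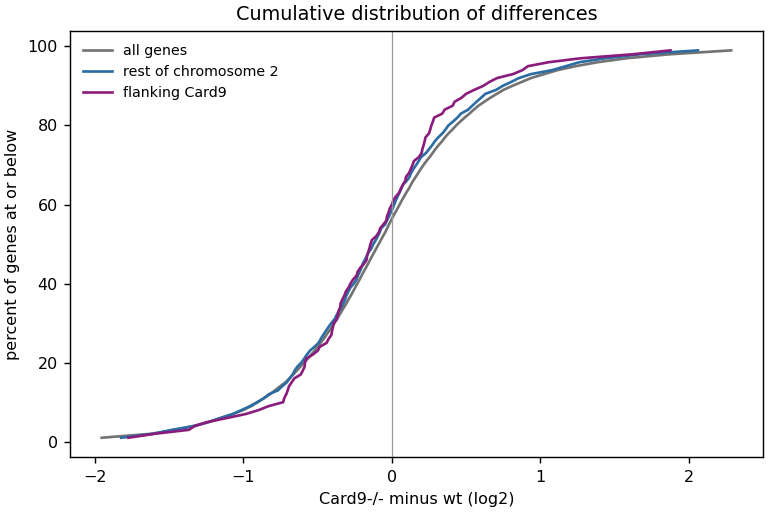
Cumulative share of genes (vertical axis, percent) at or below a given difference between Card9-/- and wt (horizontal axis, log2), for the 164 flanking genes, the other 1261 genes of chromosome 2 and all 18595 genes. The 3 curves run close together, with medians of -0.14, -0.12 and -0.09.

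By distance from Card9, the size of differences and the share with a small p did not follow the same order. Within 0.5 Mb lay 24 genes with a median difference of -0.05, of which 3 (12.5%) had an unadjusted p under 0.05, against 7.24% of all genes. From 0.5 to 1 Mb there were 31 genes with a median of -0.21 and 1 such gene (3.23%). From 1 to 2.5 Mb the 39 genes had a median of -0.14 and no such gene. The 70 genes from 2.5 to 5 Mb had a median of -0.14 and 6 such genes (8.57%). A difference of 2-fold or more either way was measured for 16.7%, 19.4%, 10.3% and 7.14% of the genes in these bands from the nearest outward, against 15.4% of all genes, which is 10 of 55 genes within 1 Mb and 9 of 109 beyond it. These shares rest on few genes, include genes at the edge of background, and were not tested against each other. Below Card9 the 70 genes were split evenly, 35 higher and 35 lower, with a median of -0.01. Above it 63 of 94 were lower, with a median of -0.19. The difference between the sides was not tested.

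**Figure D2:**
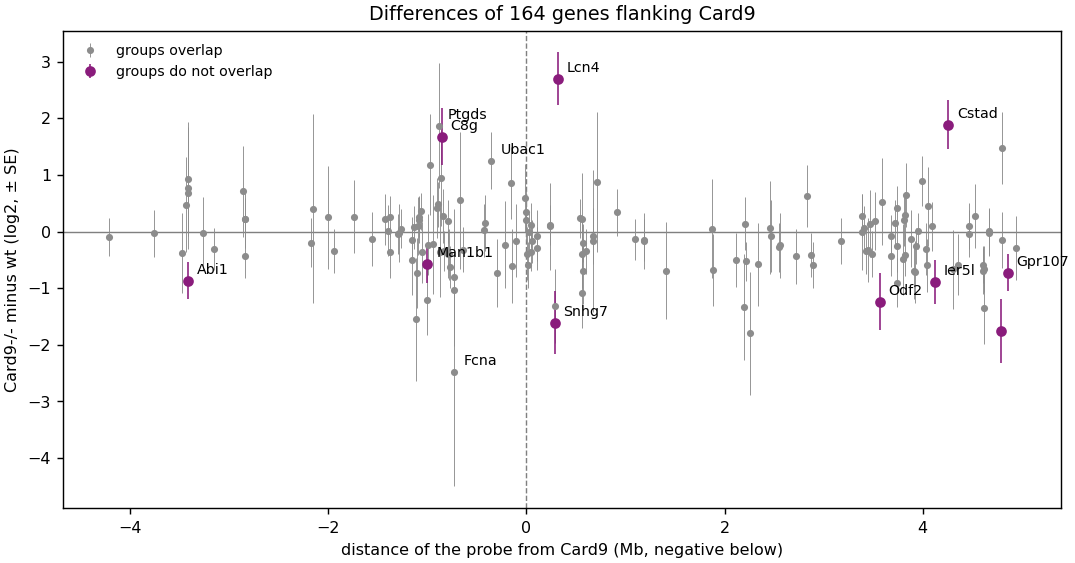
Difference between Card9-/- and wt (vertical axis, log2, ± SE, n = 4 and 4) of each of the 164 flanking genes against the distance of its probe from Card9 (horizontal axis, Mb, dashed line at Card9). Large points mark the 10 genes whose groups did not overlap; they lie from 0.285 to 4.86 Mb away, on both sides, with Lcn4 the highest at 2.69.

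The 5 nearest named genes on each side of Card9 all had overlapping groups, with standard errors of 0.34 to 0.65. Dnlz, which keeps a mitochondrial heat shock protein soluble, lies 4.04 kb below the centre of the window. It read 0.12, -0.21, -0.77 and -1.05 on the wt arrays and -0.39, -0.32, 0.52 and -0.36 on the Card9-/- arrays, a difference of 0.34 ± 0.40 (SE). A second Dnlz probe differed by -0.03. Snapc4, the largest subunit of the complex that drives small nuclear RNA genes, lies 10.3 kb above and read 3.52, 3.20, 2.22 and 2.10 on wt and 2.75, 2.56, 2.64 and 1.52 on Card9-/- arrays. The Snapc4 difference was -0.39 ± 0.47, with the 2 lower wt arrays below 3 of the Card9-/- ones. Gpsm1, a regulator of G protein subunits, was at 2.08, 2.20, 1.49 and 1.43 on wt and 2.35, 1.93, 2.29 and 1.43 on Card9-/- arrays, a difference of 0.20 ± 0.37. Entr1, an endosomal sorting protein, was the steadiest of these genes, with 1.24, 1.13, 1.31 and 0.60 on wt, 1.29, 0.94, 1.36 and 0.64 on Card9-/- arrays and a difference of -0.02 ± 0.35.

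The next genes outward also had overlapping groups. Pmpca, the alpha subunit of the peptidase that trims proteins imported into mitochondria, differed by -0.36 ± 0.34. Inpp5e, a phosphoinositide phosphatase of primary cilia, differed by 0.12 ± 0.39, and Sec16a, which organises the sites where cargo leaves the endoplasmic reticulum, by -0.17 ± 0.38. The 3 Sec16a probes ran from -0.23 to 0.56. Below Card9, Qsox2, an enzyme that forms disulfide bonds, differed by -0.61 ± 0.65 and Ccdc187 by -0.16 ± 0.64, the latter being well above background on all 4 wt arrays but on only 1 Card9-/- array. Lhx3, a homeobox factor of the pituitary and motor neurons, had the largest difference of the 10, at 0.85 ± 0.63. It was high on Card9-/- replicates 1 and 4 (0.18 and 0.87) and at wt level on replicates 2 and 3 (-1.79 and -1.57, against -2.02 to -0.81 in wt). The lowest adjusted p among the 10 was that of Lhx3, 0.835 in limma's test.

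**Figure D3:**
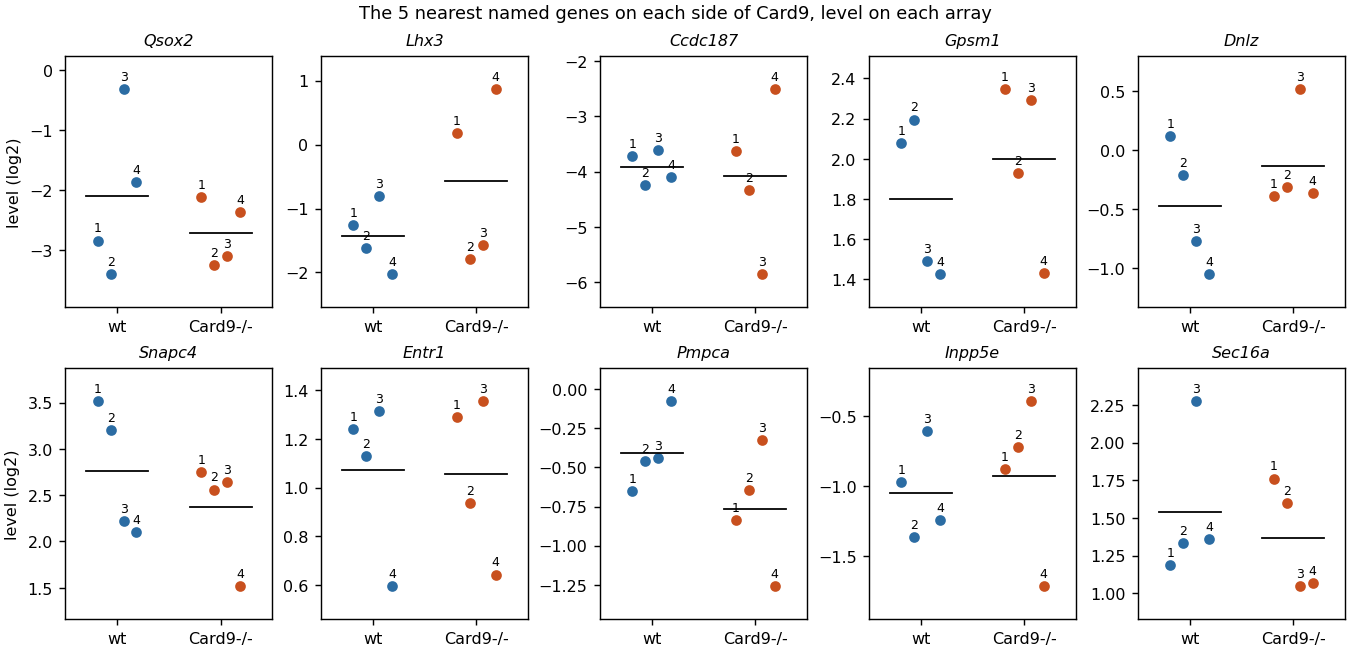
Level (vertical axis, log2 relative to the array's 75th percentile) of the 5 nearest named genes below Card9 (top row, farthest first) and above it (bottom row, nearest first) on each wt and Card9-/- array, numbered by replicate, with bars at the group means. The groups overlap in all 10 panels.

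Lcn4 had the largest difference and the smallest p of the 164 genes. It encodes a lipocalin, a small secreted carrier of hydrophobic molecules, described from nasal and vomeronasal glands, and its probe (chr2:26523247-26523306, minus strand) lies 315 kb above Card9. The levels were -4.36, -3.59, -3.91 and -5.24 on wt arrays and -0.76, -1.92, -1.96 and -1.68 on Card9-/- arrays. Every Card9-/- array was above every wt array, and on wt arrays the probe was well above background on only 2. The difference was 2.69 ± 0.47 (SE, limma, adjusted p = 0.277). Because the wt levels lie at the edge of background, the size depends on how background is handled, and normexp correction gave 1.51. The probe passed the detection filter through the Card9-/- arrays alone, which favours a higher level there, so its separation and p are a description.

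Cstad came next. It encodes a small protein first described as induced on T cell activation in the presence of cyclosporin, and its probe lies 4.26 Mb above Card9. Levels were -3.25, -2.95, -4.11 and -3.71 on wt arrays and -0.70, -1.84, -1.96 and -1.97 on Card9-/- arrays, with no overlap. The probe was well above background on all 8 arrays. The difference was 1.89 ± 0.43 (SE, limma, adjusted p = 0.509), and 1.24 after normexp correction. The exact permutation test gave 0.0286, the smallest p that 4 against 4 arrays allow, and a second Cstad probe was dim throughout. The mean of the T cell genes given above was highest, 3.26, on Card9-/- replicate 1, the array on which Cstad was also highest. The mean of the natural killer cell genes, 2.96, and the level of Lcn4 were highest on that array too. Whether T or natural killer cells had a part in the Cstad difference was not tested.

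C8g, the gamma chain of the complement protein C8 and itself a lipocalin, lies 854 kb below Card9 near the other lipocalin genes. Its levels were -3.36, -4.84, -3.10 and -4.25 on wt and -2.34, -3.06, -1.60 and -1.86 on Card9-/- arrays. The groups did not overlap, although the gap between wt replicate 3 and Card9-/- replicate 2 was small. The difference was 1.67 ± 0.50 (SE, limma, adjusted p = 0.543), again with only 2 wt arrays well above background, and 1.05 after normexp correction. C8g too passed the filter through the Card9-/- arrays alone, so its separation and p are a description.

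Ubac1 encodes a subunit of the ubiquitin ligase complex that marks the cell cycle inhibitor p27Kip1 for degradation, and lies 354 kb below Card9. Its standing probe read 0.85, 0.82, 1.39 and 1.61 on wt and 2.96, 1.75, 1.49 and 3.47 on Card9-/- arrays, with replicate 3 inside the wt range. The difference was 1.25 ± 0.50 (SE, limma, adjusted p = 0.632). A second probe separated the groups, at -1.98 to -1.65 on wt and -1.22 to 0.92 on Card9-/- arrays, and differed by 1.51. All 8 arrays were well above background on both probes.

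Among named genes lower on Card9-/- arrays, Snhg7 had the smallest p. It is a host gene of small nucleolar RNAs, transcribed as a long non-coding RNA, 285 kb above Card9. Its brighter probe read 3.26, 3.33, 2.70 and 2.83 on wt and 0.66, 2.41, 0.23 and 2.39 on Card9-/- arrays. The 2 very low arrays, Card9-/- replicates 1 and 3, were the 2 on the second slide, and the other 2 were just under the wt range. The difference was -1.61 ± 0.56 (SE, limma, adjusted p = 0.583), and within the first slide, on which Card9-/- replicate 4 stands alone, it was -0.64. The second Snhg7 probe differed by -0.48 with overlapping groups. Odf2, a protein of centriole appendages and of the sperm tail, 3.57 Mb above Card9, had the same array pattern. It read 3.63, 4.10, 3.44 and 3.53 on wt and 1.88, 3.29, 1.32 and 3.24 on Card9-/- arrays, a difference of -1.24 ± 0.50 that was -0.44 within the first slide. Of the other 4 Odf2 probes, 2 were lower by 0.09 and 0.12 and 2 higher by 0.45 and 0.69, and none separated the groups.

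Abi1 was lower without such a split between slides. Abi1 is the Abl interactor of the WAVE complex, which drives actin branching at the leading edge and in phagocytic cups, and lies 3.41 Mb below Card9. The levels were 2.93, 3.05, 3.51 and 3.53 on wt and 2.18, 2.68, 2.49 and 2.21 on Card9-/- arrays. The groups did not overlap, with a difference of -0.87 ± 0.33 (SE, limma, adjusted p = 0.613), and within the first slide it was -1.05. A second Abi1 probe differed by -0.49. Pdss1, which makes the side chain of coenzyme Q, lies end to end with Abi1 on the opposite strand, its probe 582 bases away, and went the other way. It was at -1.59, -1.79, -1.75 and -1.04 on wt and -1.30, -0.64, -0.54 and -0.96 on Card9-/- arrays, a difference of 0.68 ± 0.35, and its second probe, higher by 0.96, separated the groups.

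**Figure D4:**
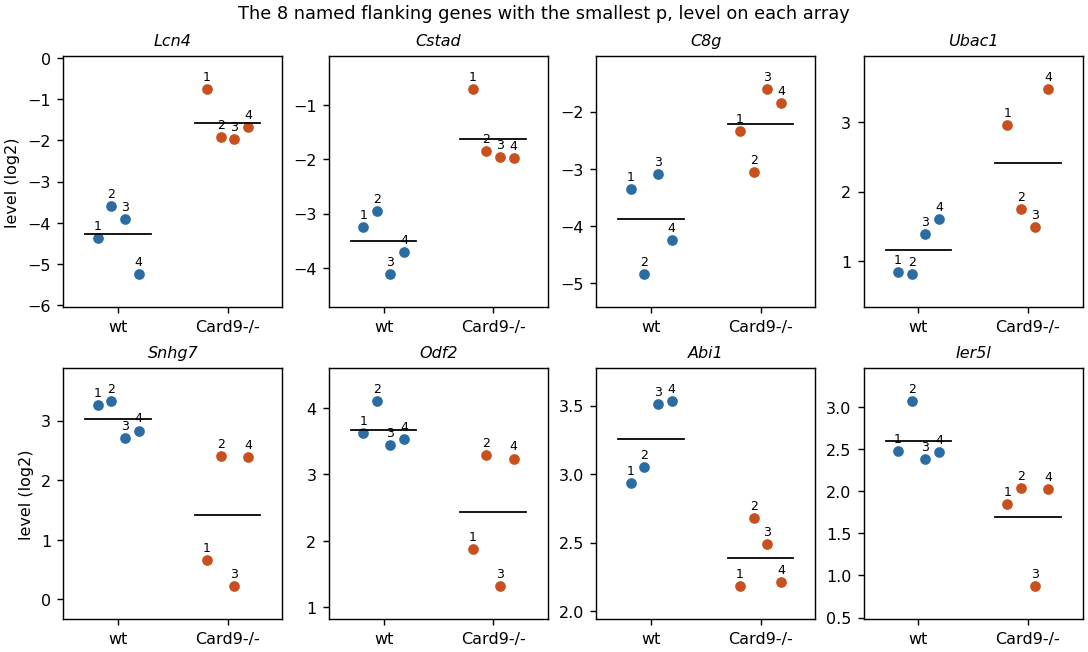
Level (vertical axis, log2 relative to the array's 75th percentile) of the 8 named flanking genes with the smallest unadjusted p on each wt and Card9-/- array, numbered by replicate, with bars at the group means. Lcn4, Cstad and C8g are higher on every Card9-/- array, Abi1 and Ier5l lower on every one, and Snhg7 and Odf2 are lowest on Card9-/- replicates 1 and 3.

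The remaining genes named by p had smaller or less even differences. Ier5l, a relative of an immediate early response gene, was lower by 0.90 (2.38 to 3.07 on wt, 0.88 to 2.04 on Card9-/- arrays, no overlap). Gpr107, a membrane protein of the Golgi, was lower by 0.72 with no overlap, at -0.04 to 0.55 on wt and -0.75 to -0.12 on Card9-/- arrays. A second Gpr107 probe was higher by 0.69, so its 2 probes disagreed in direction. Sh3glb2, an endophilin that bends membranes, was higher by 0.89, at 1.85, 1.90 and 1.85 on wt replicates 1, 2 and 4 but 3.38 on replicate 3, inside the Card9-/- range of 2.73 to 3.41. Pkn3, a protein kinase, was lower by 0.91, and Dpp7, a dipeptidyl peptidase of vesicles, by 1.21. For Dpp7 wt replicate 3 at 4.84 stood apart from 2.07 to 2.53 on the other wt arrays, and without that array the difference was -0.56. Man1b1, a mannosidase of protein quality control whose probe lies 139 bases from that of Dpp7, was chosen after its values were seen because its groups did not overlap (2.68 to 3.32 on wt, 1.83 to 2.62 on Card9-/- arrays, difference -0.56).

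A pair of unnamed transcripts at the far end of the window, probed on opposite strands of 1 interval 4.79 Mb above Card9, differed in opposite directions, which depended on background handling. The plus-strand probe read -3.21, -2.90, -2.62 and -3.84 on wt and -5.82, -3.87, -5.87 and -4.05 on Card9-/- arrays, a difference of -1.76 with no overlap. The minus-strand probe read -2.44, -3.10, -4.68 and -3.49 on wt and -2.25, -3.03, -2.06 and -0.49 on Card9-/- arrays, a difference of 1.47 with overlap. Both lie near background, the plus-strand probe passed the detection filter through wt alone (4 wt arrays, 1 Card9-/- array), and after normexp correction both differences were positive, 0.12 and 1.00.

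By role, the lipocalins and lipid carriers were the only 1 of 10 lists with every measured member on the same side. Of 13 on the array in the window, 8 were too dim to follow, and the 5 measured (Lcn4, C8g, Ptgds, Lcn12 and Lcn6) were all higher, by 0.55 to 2.69. None passed the adjusted threshold, and Lcn4, C8g and Ptgds passed the detection filter through the Card9-/- arrays alone. That way of passing favours a higher level there, so the direction of these 3 is no support. Ptgds, which makes prostaglandin D2, was highest on Card9-/- replicate 3 (0.48) and lowest on replicate 1 (-5.19), with wt arrays from -4.97 to -2.12. Lcn12 differed by 0.94 through 1 array, Card9-/- replicate 4 at 3.78, with all others from -0.70 to 0.86, and its difference without that array was 0.05. Lcn6 had the same highest array, at 1.23, and 2 of 4 Card9-/- arrays well above background. On that array the red cell and platelet genes were also highest, with a mean of 5.03 against 0.19 to 3.05 on the other 7, and their part in the Lcn12 and Lcn6 values was not tested.

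The list of TNF receptor, kinase and leukocyte adhesion signalling had 12 measured genes, and it also took in genes of other roles, such as Fcna, Slc2a6 and Edf1. Of the 12, 4 were higher and 8 lower, Fcna, Slc2a6 and Edf1 among the lower ones, with a median of -0.36. Only Abi1 had an unadjusted p under 0.05, and none passed the adjusted threshold. Traf2, the adaptor that links TNF receptors to NF-kB and JNK signalling, was at 4.22 to 4.73 on wt and 3.50 to 4.61 on Card9-/- arrays, a difference of -0.34. A second Traf2 probe was higher by 0.25. Edf1, a transcriptional coactivator, differed by -0.40 ± 0.43. Of the 19 measured genes of transcription and chromatin, 16 were lower and 3 higher, with a median of -0.24 and none past either threshold. This list included Med22, a Mediator subunit (-1.08 ± 0.62, detected on 3 arrays of wt and 1 of Card9-/-, and 0.13 after normexp correction) and Rexo4, an exonuclease (-0.35 ± 0.40). The 3 Rexo4 probes ran from -0.65 to 0.635. The median over all genes itself ran from -0.26 to 0.03 between the scaling and background settings.

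Notch1, the receptor with the closest position to Card9 among its pathway genes (111 kb above), read -2.06 to -1.26 on wt and -2.39 to -1.21 on Card9-/- arrays, a difference of -0.30 ± 0.38. Egfl7, a secreted Notch modulator, differed by 0.09, and the remaining gene of that list was too dim. In the Surfeit cluster, 4 of 5 genes were lower and 1 higher, none past either threshold. Surf4, a cargo receptor of the early secretory pathway, was at 3.31, 3.66, 5.88 and 4.86 on wt and 4.02, 3.90, 3.88 and 3.10 on Card9-/- arrays, a difference of -0.70 ± 0.58 carried by wt replicates 3 and 4. Surf1, an assembly factor of cytochrome c oxidase, and Surf2 share a start region, their starts 122 bases apart, and differed by -0.40 and -0.21. A second Surf2 probe was higher by 0.45.

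The lists of cell structure and metabolism held no call either. Of 11 cytoskeletal and ciliary genes, 8 were higher and 3 lower (median 0.12), with the beta tubulin Tubb4b at 0.08 ± 0.38. A second Tubb4b probe differed by -0.415. Of 16 enzymes and carriers of lipids and sugars, 4 were higher and 12 lower (median -0.20), and Ndor1, a flavoprotein reductase, read 7.75 to 8.58 on wt and 6.19 to 9.18 on Card9-/- arrays. A second Ndor1 probe was far dimmer, at -3.30 to -1.90 on wt and -3.21 to -1.69 on Card9-/- arrays, so the probes disagree on how bright the gene is. Mitochondrial genes were split 4 and 4 (median -0.03), and genes of protein sorting and turnover 3 higher and 7 lower (median -0.26). Of 4 measured neuronal genes, 2 were higher and 2 lower. These included Ntng2, an axon guidance protein with no Card9-/- array and 3 wt arrays well above background (-0.41 ± 0.39). The other 5 neuronal genes on the array in the window were too dim to follow.

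Pairs of flanking genes that start head to head within 1 kb of each other on GRCm38.p6 numbered 14, and both genes had a difference of the same sign in 9 of them. Of all flanking genes 59.8% were lower, and the share of same signs was not taken over other pairs, so this count is a description. Entr1 and Pmpca, 32 bases apart at their starts, differed by -0.02 and -0.36, and Trub2 and Coq4, 178 bases apart, by -0.34 and -0.33. C8g shares its start region, 244 bases, with Fbxw5, a substrate receptor of a ubiquitin ligase, which differed by 0.28 against 1.67 for C8g.

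The 13 long non-coding RNA genes were all lower on Card9-/- arrays, by 0.08 to 1.61, with a median of -0.59, and 1 of them, Snhg7, had an unadjusted p under 0.05. Among all 801 such genes on the array, 51.7% were lower and the median was -0.02. The group was picked out after its values were seen. The direction changed with background handling and within the first slide, where Card9-/- replicate 4 stands alone. After normexp correction 8 of the 13 were lower (median -0.06), beside 28.5% of the 801 long non-coding RNA genes (median 0.28). Within the first slide 5 of the 13 were lower (median 0.19), beside 38.1% of the 801 (median 0.37). The part of the slide and that of its only Card9-/- array cannot be told apart. With Card9-/- replicate 4 left out, 11 of the 13 were lower (median -0.94), beside 57.6% of the 801. Among the Card9-/- arrays, 9 of the 13 were lower on the 2 arrays of the second slide than on the other 2, with a median gap of -0.98, against 72 of all 164 flanking genes and a median gap of 0.18. Snhg7os, transcribed near Snhg7 on the opposite strand, read 0.15, 0.48, 2.29 and 0.95 on wt and -0.63, -0.74, -1.29 and 1.26 on Card9-/- arrays. It was lower by 1.32 over all arrays and higher by 0.29 within the first slide.

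The widest spread of any flanking gene lay among the wt arrays. The genes in this paragraph, apart from Olfm1, were chosen after their values were seen. Fcna, the secreted lectin ficolin A, read -4.40 and -2.90 on wt replicates 1 and 2, 5.55 and 3.64 on replicates 3 and 4, and -3.70 to -0.96 on Card9-/- arrays. Slc2a6, a sugar transporter of lysosomes, read 0.72 and 0.94 against 6.62 and 5.36, with 2.88 to 3.59 on Card9-/- arrays. Ralgds, an activator of Ral GTPases, read 0.64 and 0.90 against 4.23 and 4.88, with 1.14 to 1.87 on Card9-/- arrays. In each of the 3 the first 2 wt arrays lay at or below the Card9-/- range, apart from Fcna, where wt replicate 2 fell inside it, and the other 2 wt arrays lay well above it. Rxra, a partner of nuclear receptors, was high on wt replicate 3 (4.35), with 0.04 to 1.72 on the other 7 arrays. Olfm1, a secreted glycoprotein of neurons, read -1.80 and -2.02 against 1.51 and 1.27 on wt, with -1.23 to 0.45 on Card9-/- arrays.

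These values ran beside the 8 macrophage marker genes, whose means on the same wt arrays were 0.85, 1.12, 6.74 and 5.39, and the part of that split in the results was not tested. With wt replicates 1 and 2 left out, 4 flanking genes passed limma's adjusted threshold: Fcna (-6.60, adjusted p = 0.022), Ralgds (-3.23, 0.0257), Slc2a6 (-2.75, 0.0403) and Lcn4 (2.99, 0.0423). The background was then 430 of all genes, or 2.31%, and the 4 are 2.44% of the flanking genes. With wt replicates 3 and 4 left out instead, no flanking gene passed. Lcn4 had passed the detection filter through the Card9-/- arrays alone. Fcna, Ralgds and Slc2a6 passed in no other setting that was run. These genes were low on wt replicates 1 and 2, and the setting without those arrays was chosen after that split was seen. Their p-values there are a description.

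Of 6 genes of the interleukin 1 family in the window, 4 were too dim to follow and 2 were measured. Il1rn, the interleukin 1 receptor antagonist, 2.00 Mb below Card9, read 2.48, 2.85, 4.60 and 7.10 on wt and 4.47, 4.14, 5.22 and 4.19 on Card9-/- arrays, and Il1f9, which encodes interleukin 36 gamma, read 2.53 on wt replicate 4 and between -5.65 and -0.14 on the other 7 arrays.

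**Figure D5:**
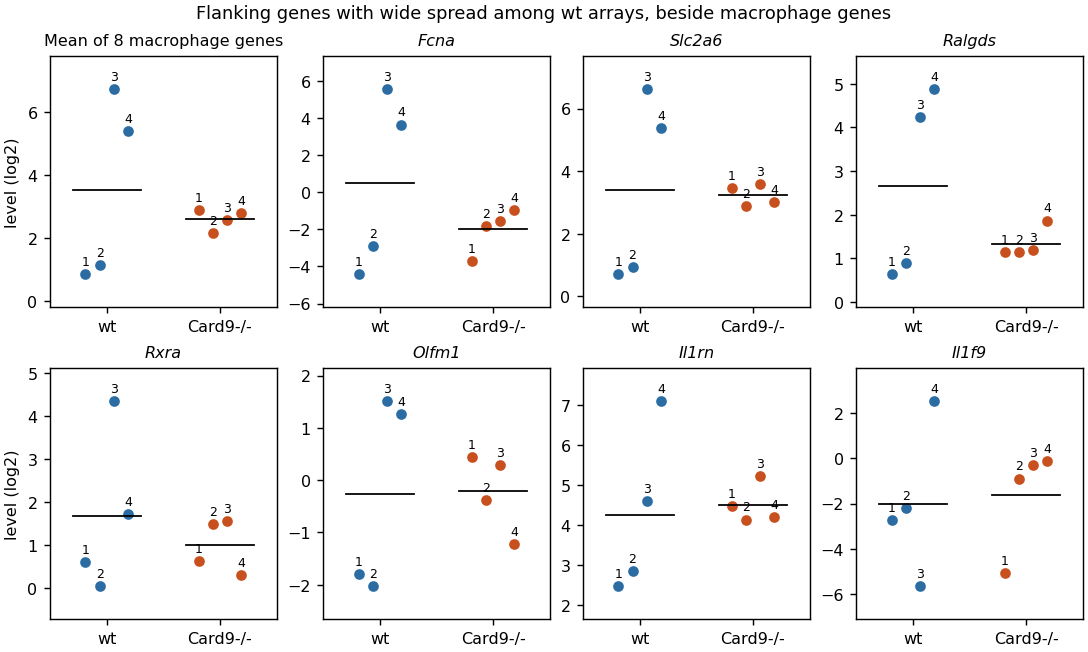
Level (vertical axis, log2 relative to the array's 75th percentile) of 7 flanking genes on each wt and Card9-/- array, numbered by replicate, with bars at the group means; the first panel gives the mean of 8 macrophage marker genes. Fcna, Slc2a6, Ralgds and Olfm1 are high on wt replicates 3 and 4 and low on wt replicates 1 and 2, as are the macrophage genes, while Il1rn and Il1f9 are highest on wt replicate 4.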

How the data were processed

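The 8 deposited scanner files held 1-colour (Cy3) intensity values, background-subtracted and processed by the authors with Agilent Feature Extraction 10.7.1.1, per the submitters' processing notes. Positions are on mm9 as the files give them. Gene names came from the files, updated through RefSeq tables. log2 of the processed signal minus the array's 75th percentile of non-control spots was taken, with outlier spots left out, and 1 probe was kept per gene. limma 3.58.1 (lmFit and eBayes, R 4.3.3) was fitted over all 18595 genes and 8 arrays with genotype as the only term, 2-sided, with Benjamini-Hochberg adjustment at 0.05, and exact permutation tests over the 70 assignments of arrays stood beside single genes. The number of arrays, 4 a group, limits the precision. The authors' deposited log2 value table served as an alternative. From row 49669 of its 56745 rows on, only 39.3% of values matched the scanner values of their own identifier, and 98.2% matched those of the next one.

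Named genes were up to 8 per direction by smallest p, the 5 nearest to Card9 on each side, and, of each of 10 gene lists, the one with the smallest p and the brightest. Genes dim on all 4 arrays of 1 genotype were added. The members and lists were chosen with earlier results of these data known. Marker lists covered macrophages, T, natural killer and B cells, neutrophils, red cells and platelets, mesothelial cells, and mast cells and eosinophils. In the B cell list 6 of 7 measured genes were higher on Card9-/- arrays, and in the neutrophil list 3 of 9, in the red cell and platelet list 8 of 9, in the mesothelial list 3 of 4, in the mast cell and eosinophil list 2 of 8 and in the macrophage list 2 of 8. None of the genes in these lists passed the adjusted threshold. Alternatives covered background correction, scaling, filters, probe choice, slide and replicate blocks, array weights, left-out arrays and window width. The fit was tested on simulated data. Promoters are RefSeq's, GRCm38.p6.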

Additional observations from a re-analysis of the deposited data

Results flagged for a closer look

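The arrays of each genotype were examined for 1 array standing far from the other 3, over 72 groups of 4 (36 named genes in 2 genotypes), and 9 met the criterion, where chance alone gives about 1 in 20. On wt replicate 3, Dpp7 read 4.84 (2.07 to 2.53 on the other wt arrays), Sh3glb2 3.38 (1.85 to 1.90) and Sec16a 2.27 (1.18 to 1.36). On wt replicate 2, Ier5l read 3.07 (2.38 to 2.47). On Card9-/- replicate 1, Cstad read -0.70 (-1.97 to -1.84 on the other Card9-/- arrays). On Card9-/- replicate 3, Dnlz read 0.52 (-0.39 to -0.32) and Ier5l 0.88 (1.85 to 2.04). On Card9-/- replicate 4, Snapc4 read 1.52 (2.56 to 2.75) and Surf4 3.10 (3.88 to 4.01).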

How the results depend on the processing

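The count of flanking genes past limma's adjusted threshold stayed at 0 in every setting run except 2. With estimated array weights (0.187 for wt replicate 3 to 7.67 for wt replicate 2) it was 3, namely Lcn4 (2.11, adjusted p = 0.0346), Cstad (1.35, 0.0418) and Sh3glb2 (1.13, 0.0424), beside 546 of all genes (2.94%), and with wt replicates 1 and 2 left out it was 4, beside 2.31% of all genes. This last setting and that without wt replicates 3 and 4 were chosen after seeing the data. At an unadjusted p under 0.05 the 10 flanking genes became 41 of the 164 with array weights (beside 27.9% of all genes), 20 without wt replicates 3 and 4 (12.2% beside 13.5%), 28 without wt replicates 1 and 2 (17.1% beside 18.8%), and 4 of 55 within 1 Mb and 4 of 94 within 2.5 Mb, where fewer genes are counted (7.24% of all genes). Leaving out 1 array at a time gave 7 to 17, the highest without Card9-/- replicate 4 (10.4% beside 10.3%). Groups that did not overlap numbered 91 within slide 1, where Card9-/- has 1 array (55.5%, beside 49.9% of all genes), 47 without wt replicates 3 and 4 (28.7% beside 30.5%), 44 without wt replicates 1 and 2 (26.8% beside 29.2%), 11 to 20 with 1 array left out (17 without wt replicate 4, 10.4% beside 8.95%, and 20 without Card9-/- replicate 4, 12.2% beside 12.0%), 3 of 55 within 1 Mb and 4 of 94 within 2.5 Mb (5.23% of all genes). Fewer arrays or genes enter each of these. The median difference moved to -0.36 with slide as a fixed block and within slide 1, beside -0.26 for all genes, and the share lower to 71.3% with median scaling. Slides other than slide 1 hold only Card9-/- arrays, so both slide settings give the same contrast, Card9-/- replicate 4 against the wt arrays. Snhg7os reversed to 0.29 in that contrast, and the cause was not tested. The other named leading genes kept their direction in every setting that gave them a value. Replicate numbers did not pair the arrays: same-numbered arrays had correlations of deviations of -0.13, 0.25, -0.12 and -0.28, and 1 of 4 matched its own number best. With the replicate block 0 flanking genes passed and 7 had an unadjusted p under 0.05 (4.27%, beside 5.38% of all genes). With wt replicates 1 and 2 averaged, 0 flanking genes passed and 7 had an unadjusted p under 0.05 (4.27%, beside 6.36% of all genes). Levels of Lcn4 and C8g in wt lie at background, where the arrays limit the size of a fold.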
